A study of Mus musculus with 6 samples.

Results

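Adipogenesis, the conversion of a fibroblast-like precursor into a fat cell, was followed through 10 genes in mouse embryonic fibroblasts (MEFs), primary cells grown from mouse embryos. The genes were 4 transcription factors (*Pparg*, *Cebpa*, *Cebpb* and *Cebpd*) and 6 genes of fatty acid uptake, lipid storage and adipokine secretion (*Fabp4*, *Lpl*, *Adipoq*, *Plin1*, *Plin2* and *Cd36*). They were chosen by name, and all 10 were found among the 25043 genes to which the RefSeq transcripts of the deposited table belong. Where a gene has several transcripts, the one with the highest mean stands for it.

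RNA was sequenced from 3 libraries of WT (wild type) MEFs and 3 libraries of *Anp32e* null MEFs, both at a passage below 8. *Anp32e* encodes a histone chaperone that removes the variant H2A.Z from chromatin, and the study asked how its loss alters chromatin and gene expression. The labels name no sex, embryo or clone, and no agent in either group. The study's methods describe culture of the MEFs in medium with serum and antibiotics. The deposited table was made by the authors for their comparison of the groups. Its column of mean normalized counts pools all 6 libraries, and its columns of differences and p-values were not used here, so the levels below are those of WT and *Anp32e* null MEFs together. No SD between replicates, no value per group and no test of WT against *Anp32e* null MEFs is given for any gene. *Anp32e* itself, the targeted gene, had a pooled mean of 2190 normalized counts, which cannot serve as a check of the labels.

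In the known order of adipogenesis, C/EBPβ and C/EBPδ are induced first by hormonal stimuli, and they in turn activate *Pparg* and *Cebpa*, whose products maintain each other and drive the genes of the mature fat cell. PPARγ acts as a dimer with a retinoid X receptor, and its *Pparg2* form is largely restricted to adipose tissue. Fibroblasts from embryos hold precursors that can enter this program, and several of its lipid genes also work in macrophages, endothelium or muscle.

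The levels of the 10 genes fell into separate ranges. *Plin2*, *Cebpb*, *Fabp4*, *Pparg* and *Cebpd* lay between 617 and 5291 normalized counts per kilobase of transcript, above the median of 146 over all 18746 genes with reads and a known length. *Cebpa* and *Lpl* lay below this median, at 80.7 and 37.5 normalized counts per kilobase. *Plin1*, *Adipoq* and *Cd36* lay at 0.878, 0.39 and 0.214 normalized counts per kilobase, and at 10, 3 and 4 reads in all 6 libraries together. Of the 10 genes, 7 thus had a mean of at least 10 normalized counts, as had 73.9% of all genes with reads. In bulk RNA, fewer cells that express a gene and less RNA per cell cannot be told apart.

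Sequence upstream of the start sites separated some of these genes as well. RefSeq promoters (GRCm38.p6) were at hand for 7 of the 10 genes, not for *Fabp4*, *Lpl* and *Cebpd*, and CpG dinucleotides were counted in the 250 bases before each start. Promoters are shown to let the contrast be read in the letters themselves. They are those of a gene expressed at a high level, of one with an intermediate CpG count, of the start of *Pparg2* and of a gene with 3 reads. Each is written 5′ to 3′ on the strand of its gene, with CpG dinucleotides in capitals. For *Plin2* the last base is left out, since GENCODE places it in an exon. That base is the G of the last CpG dinucleotide counted for *Plin2*, so the printed sequence ends in its C alone. In the windows that are not shown, GENCODE exons cover 193 of the 250 bases before the first start of *Pparg*, 57 before the second and 127 before *Plin1*, so their counts are partly those of transcribed sequence.

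Cebpb, chr2:167688665-167688914, plus strand: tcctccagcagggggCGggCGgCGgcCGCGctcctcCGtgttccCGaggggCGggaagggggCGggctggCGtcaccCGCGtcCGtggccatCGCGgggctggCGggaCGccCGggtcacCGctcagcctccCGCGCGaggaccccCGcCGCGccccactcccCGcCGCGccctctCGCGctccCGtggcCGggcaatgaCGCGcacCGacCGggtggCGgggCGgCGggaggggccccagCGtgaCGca

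Plin2, chr4:86670061-86670309, minus strand: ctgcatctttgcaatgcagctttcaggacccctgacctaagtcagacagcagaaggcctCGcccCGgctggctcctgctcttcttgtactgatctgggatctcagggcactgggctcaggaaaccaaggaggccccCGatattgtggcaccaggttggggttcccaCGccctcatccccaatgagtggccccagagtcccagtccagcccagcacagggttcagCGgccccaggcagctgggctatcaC

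Pparg, the third start, chr6:115421816-115422065, plus strand: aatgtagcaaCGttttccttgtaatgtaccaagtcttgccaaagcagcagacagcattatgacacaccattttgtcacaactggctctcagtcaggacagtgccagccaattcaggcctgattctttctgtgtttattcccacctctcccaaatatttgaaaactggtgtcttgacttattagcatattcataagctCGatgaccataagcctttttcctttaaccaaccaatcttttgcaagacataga

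Adipoq, chr16:23146286-23146535, plus strand: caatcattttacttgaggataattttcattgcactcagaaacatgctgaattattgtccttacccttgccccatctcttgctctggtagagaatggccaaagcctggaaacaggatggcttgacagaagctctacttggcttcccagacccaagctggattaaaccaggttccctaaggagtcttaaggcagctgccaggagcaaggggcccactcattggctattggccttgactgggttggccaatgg

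The *Cebpb* promoter held 41 CpG dinucleotides, more than 98.9% of the 32851 promoters in the RefSeq set, and had a GC content of 81.6%. The *Plin2* promoter held 6, which is also the median of all promoters. The *Adipoq* promoter held none, a count shared by 7.87% of all promoters, and those of *Plin1* and *Cd36* held 1 and 3. *Cebpa* had 22. *Pparg* has 3 annotated starts on chromosome 6, with 38 CpG dinucleotides before the first, 12 before the second and 2 before the third. The 3 genes with 10 reads or fewer were also the 3 of these 7 with no examined promoter above 3 CpG dinucleotides. *Pparg*, with at least 7761 reads, also had a start with only 2, beside its starts with 38 and 12. *Plin2* combined the highest level of the 10 genes with an intermediate count. For *Cd36* the window before 1 start was examined, and its transcripts from other starts were not.

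Among all 14165 genes with reads, a length and a promoter, the level was higher with more CpG dinucleotides in the promoter. Genes with at most 3 CpG dinucleotides, 14.2% of these genes, had a median of 1.69 normalized counts per kilobase, and 10.4% of them exceeded the median of all genes. With 4 to 9 the median was 21.6, with 10 to 19 it was 334, and with 20 or more it was 402 normalized counts per kilobase. In the lowest class the quartiles were 0.364 and 16.8: *Cd36* lay below the lower one, and *Adipoq* and *Plin1* lay between it and the median of the class. *Plin2* lay above the upper quartile of its class, which was 295. Where a gene has several promoters, the highest count was used, which places *Pparg* in the class of 20 or more. In that class, which also holds *Cebpa* and *Cebpb*, the quartiles were 103 and 1163. *Cebpa*, at 80.7 normalized counts per kilobase, lay below the lower quartile and below the median of all genes, against the direction of the relation. *Pparg*, at 670, lay between the median of the class and the upper quartile, and *Cebpb*, at 1674, lay above the upper one. These relations are across genes of the same 6 libraries and are given as a description.

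**Figure D1:**
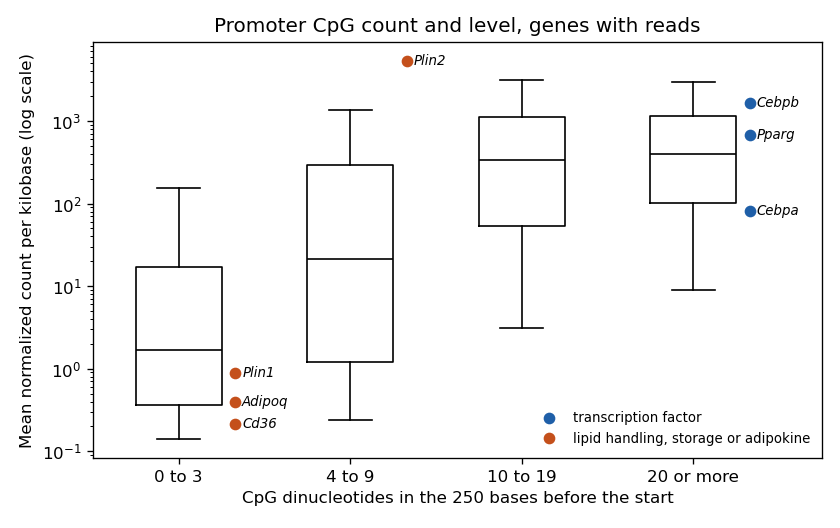
Mean normalized count per kilobase (log scale) by the number of CpG dinucleotides in the 250 bases before the start, for 14165 genes with reads. Boxes give the quartiles and median, whiskers the 10th and 90th percentile, and points the 7 adipogenic genes with a promoter. *Plin1*, *Adipoq* and *Cd36* sit in the class with at most 3 CpG dinucleotides, and *Plin2* sits above the box of the class with 4 to 9.

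Motifs were also searched on both strands of the 250 bases. TATAAA, the core of a TATA box, was found before *Cebpa* and the second start of *Pparg*, and in 12.4% of all promoters. The DR1 repeat, which is AGGTCA written again after 1 base of any kind and is bound by dimers of PPAR and retinoid X receptors, was found before none of the 7 genes and in 0.0335% of all promoters. TTGCGCAA, the palindrome bound by C/EBP dimers, was likewise found before none of them and in 0.164% of all promoters. CCAAT was found before *Adipoq* at 3 positions, before the third start of *Pparg* at 2, and before *Cd36*, *Plin2* and the second start of *Pparg* at 1 each, against 33.8% of all promoters with at least 1.

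Only the counting error of these levels can be given, since the mean carries no spread between libraries and the authors' standard errors of the differences were not used. In the lowest means of the table, 1 read in 1 library adds between 0.147 and 0.183 to the mean, and these 6 steps correspond to size factors between 0.909 and 1.13. They show how many reads stand behind a mean, but not which library belongs to which group. The 95% intervals below are exact Poisson intervals on the fewest reads that a mean allows. They cover counting error only, neither the spread between cultures nor a difference between WT and *Anp32e* null MEFs. They also take counted reads as independent. The study sequenced both ends of each fragment, and whether these ends were counted together or separately cannot be read from the mean. If they were counted separately, the intervals are too narrow.

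**Figure D2:**
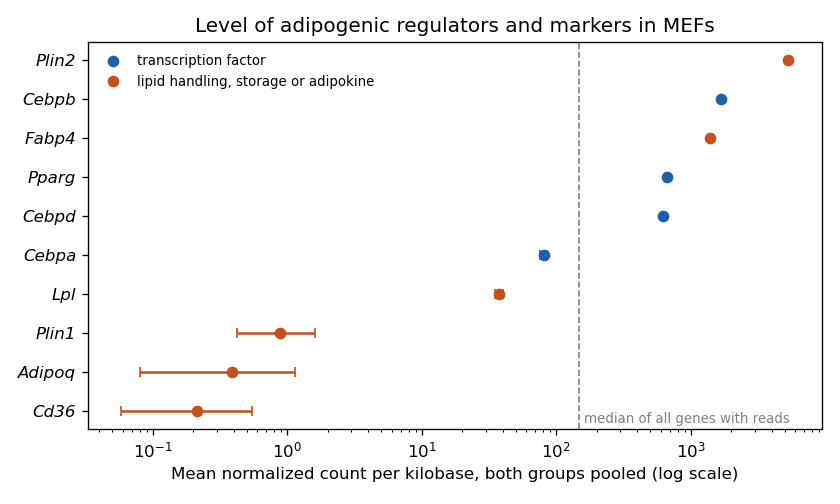
Mean normalized count per kilobase (log scale) of the 10 adipogenic genes over all 6 libraries, with WT and *Anp32e* null MEFs pooled. Bars are 95% Poisson intervals that cover counting error only and take counted reads as independent. The dashed line is the median of all genes with reads, 146. The genes range from 5291 for *Plin2* to 0.214 for *Cd36*.

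Of the transcription factors, *Cebpb*, which encodes C/EBPβ, had the highest level when the highest transcript stands for each gene. When the distinct means of a gene's transcripts were summed, which counts shared reads of *Pparg* again, *Pparg* stood above it at percentile 86 against 80.4. It is a gene of 1 exon on chromosome 2 (167688915 to 167690432, plus strand) with a mean of 2518 normalized counts, from at least 13731 reads. This gave 1674 normalized counts per kilobase (95% interval 1646 to 1702), higher than 86.9% of genes with reads. Its 3 RefSeq transcripts carry the same mean. Of its exon bases, 312 of 1504 also lie in exons of *Tmem189* on the opposite strand. The kit marks strand. The study's methods name default settings, under which featureCounts ignores strand and drops reads that overlap several features. Reads appear, as described below, to have been counted on every transcript they overlap, so not all settings were the default. Whether reads of *Tmem189* in this stretch were counted for *Cebpb* therefore cannot be settled.

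*Cebpd*, which encodes C/EBPδ, lies on chromosome 16 (15887286 to 15889545, plus strand) and also has 1 exon. Its mean of 2311 normalized counts was close to that of *Cebpb*, which was 1.09 times as high. Its level per kilobase depended on the annotation. With the GENCODE transcript of 3746 bases it was 617 (95% interval 606 to 628), and with the RefSeq gene of 2260 bases it was 1023 normalized counts per kilobase. The percentile moved from 72 to 80.1 between these lengths. *Spidr* overlaps 562 of the 3746 bases from the opposite strand.

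*Cebpa*, which encodes C/EBPα, was the lowest of the 4 factors. It lies on chromosome 7 (35119293 to 35121928, plus strand), and all 5 of its RefSeq transcripts carry a mean of 212 normalized counts, from at least 1156 reads. At 80.7 normalized counts per kilobase (95% interval 76.1 to 85.5) it stood below the median gene, at percentile 43.8. *Cebpb* was 20.7 times and *Cebpd* 7.64 times as high per kilobase with GENCODE lengths. Without division by length these ratios were 11.9 and 10.9. With RefSeq lengths *Cebpd* had 1023 and *Cebpa* 80.4 normalized counts per kilobase, a larger ratio than with GENCODE lengths. Both early C/EBP factors were thus higher than *Cebpa* on either scale.

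*Pparg*, the nuclear receptor that directs fat cell formation, spans chromosome 6 from 115360879 to 115490404 on the plus strand. Its highest transcript had a mean of 1423 normalized counts, from at least 7761 reads, or 670 normalized counts per kilobase (95% interval 655 to 685, percentile 73.4). *Pparg* was 8.3 times as high as *Cebpa* per kilobase. It was 1.09 times as high as *Cebpd* with the GENCODE length of *Cebpd*, and lower than *Cebpd* with the RefSeq length.

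**Figure D3:**
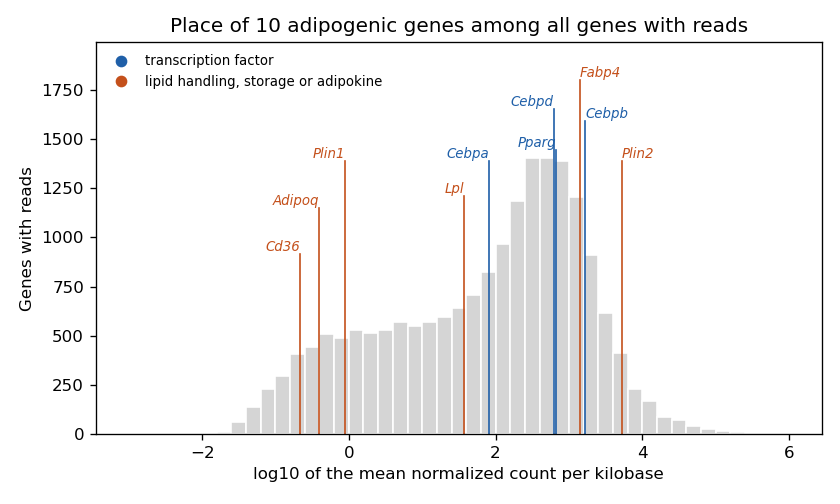
Distribution of the mean normalized count per kilobase (log10) over the 18746 genes with reads and a length, in bins of 0.2, with the 10 adipogenic genes as lines whose height has no meaning. *Plin2*, *Cebpb*, *Fabp4*, *Pparg* and *Cebpd* fall in the right part of the distribution, and *Plin1*, *Adipoq* and *Cd36* in its left tail.

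The 4 RefSeq transcripts of *Pparg* were the only ones among those of the 10 genes to differ in their means. The other 4 genes with more than 1 transcript had the same mean for each. Reads appear to have been counted on every transcript they overlap. In the whole table, 2013 pairs of transcripts with reads were found where the exons of one hold those of the other. The median ratio of the holding to the held transcript was 1. Had shared reads been dropped, the held transcript would have kept almost none. The holding transcript was at least as high in 1974 of these pairs, which alone could not decide how reads were counted. For *Pparg* the means were 1423, 1416, 1380 and 1291 normalized counts. The lowest belongs to NM_011146, which encodes PPARγ2 and begins at the third start.

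The GENCODE match of the highest transcript has 8 exons, begins at 115360951 with an exon of 420 bases, and shares 1640 exon bases with that of NM_011146. It holds 485 bases that NM_011146 lacks, and NM_011146 holds a first exon of 127 bases (115422066 to 115422192) that it lacks. The means differed by 132 normalized counts, which is 9.3% of the higher one and about 796 reads. Under counting on every overlapping transcript, reads that touch only the bases NM_011146 lacks exceeded those that touch only the exon of the third start by this amount. The bases it lacks include an exon at 115383679 to 115383743 that the transcript from the second start also has. The difference is therefore not particular to the first start. These bases are those of GENCODE, while reads were counted on RefSeq transcripts. The match is inexact, since the transcript with a mean of 1416 normalized counts has the same GENCODE match as the highest. The mean of NM_011146 includes all reads on the exons it shares with the highest transcript. How many reads came from the exon of the third start alone cannot be read from the table. The transcript from the second start exceeded NM_011146 by 89.2 normalized counts.

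**Figure D4:**
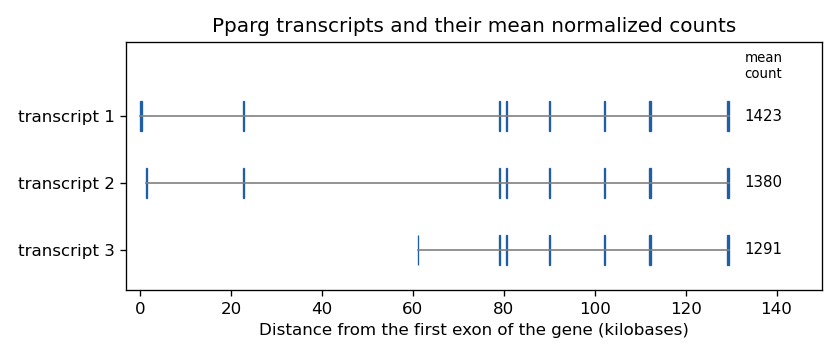
Exons of 3 *Pparg* transcripts (bars, drawn to scale with a thin outline) by distance from the first exon of the gene in kilobases, with the mean normalized count of each at the right. Transcript 3 is the PPARγ2 form. The last 6 exons of the 3 transcripts overlap, and their means are 1423, 1380 and 1291.

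*Plin2*, which encodes a coat protein of lipid droplets that many cell types make, was the highest of the lipid genes and of all 10. It lies on the minus strand of chromosome 4 (GENCODE transcript 86656565 to 86670060, 8 exons). Its mean of 9988 normalized counts came from at least 54473 reads, and its level of 5291 normalized counts per kilobase (95% interval 5246 to 5335) was higher than 95.8% of genes with reads. It was 3.16 times as high per kilobase as *Cebpb*, the next of the 10 with GENCODE lengths. *Plin2* alone made up 9988 of the 17859 normalized counts that the 10 genes summed to.

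*Plin1*, which encodes the droplet coat protein characteristic of adipocytes, was near the limit of detection. Its transcripts on the minus strand of chromosome 7 (79721164 to 79732904) had a mean of 1.68 normalized counts, which was exactly 10 reads. These reads were spread over 4 of the 6 libraries, with at most 3 in any of them, and which group those libraries belong to is not known from the mean. The level of 0.878 normalized counts per kilobase (95% interval 0.421 to 1.61) stood at percentile 12.9. *Plin2* and *Plin1* thus lay far apart among expressed genes.

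*Fabp4*, a carrier of fatty acids in the cytoplasm of adipocytes and macrophages, lies on chromosome 3 (10204342 to 10208616, minus strand, 4 exons) and had a mean of 1250 normalized counts, from at least 6818 reads. Its short transcript of 896 bases gave it 1395 normalized counts per kilobase (95% interval 1362 to 1429), at percentile 84.7. This length is that of the GENCODE transcript, which runs from 10204088 to 10208576 and so extends beyond the RefSeq gene at its 3′ end. The level with a RefSeq length was not computed, so the order of *Fabp4* and *Cebpb* per kilobase holds for GENCODE lengths only. Without division by length the percentile of *Fabp4* was 66.2, the largest effect of length among the 10 genes.

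*Lpl*, the secreted lipase that frees fatty acids from lipoproteins, was lower than *Fabp4*. It lies on chromosome 8 (68880555 to 68906932, plus strand, 10 exons) with a mean of 154 normalized counts, from at least 841 reads. At 37.5 normalized counts per kilobase (95% interval 35 to 40.1) it stood at percentile 37.3. *Fabp4* was 37.2 times as high per kilobase and 8.11 times as high without division by length.

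*Cd36*, the membrane receptor for long-chain fatty acids, lies on chromosome 5 (17781690 to 17888959, minus strand). All 5 of its RefSeq transcripts had a mean of 0.645 normalized counts, which was exactly 4 reads, 3 of them in the same library. *Adipoq*, which encodes the hormone adiponectin and lies on chromosome 16 (23146536 to 23157968, plus strand, 3 exons), had 3 reads in 2 libraries, a mean of 0.504 normalized counts. A count of 0 allows an expected total of up to 3 reads, a mean of 0.499, so the mean of *Adipoq* was close to what a gene without reads may have. Per kilobase the intervals were 0.0583 to 0.548 for *Cd36* and 0.0804 to 1.14 for *Adipoq*. They overlapped each other and that of *Plin1*, and the order of the 3 was not tested. All 3 lay far below the next gene in order, *Lpl*, whose interval began at 35.

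Genes around these 10 in the same program were described with lists of other factors and enzymes. For comparison with the counts below, 19275 of all 25043 genes had reads. Of the genes with reads, 73.9% had a mean of at least 10 normalized counts. All 14 other factors that promote adipogenesis had reads, and 8 of them exceeded the median level per kilobase. The highest were *Rxra*, the retinoid X receptor that pairs with PPARγ, with 2718 normalized counts per kilobase, *Srebf1* with 717 and *Nr3c1*, the glucocorticoid receptor, with 580. *Rxra* was 4.06 times as high as *Pparg*. All 8 factors that restrain adipogenesis had a mean of at least 10 normalized counts, with *Hes1* (2131 normalized counts per kilobase), *Ddit3* (1421) and *Klf2* (441) the highest. The median percentiles of these lists were 55.8 for promoting and 58.6 for restraining factors, and that of the 10 genes was 57.9.

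Among 19 other genes of lipid droplets, triglyceride synthesis and lipolysis, 18 had reads and 12 exceeded the median level per kilobase. *Agpat2*, an acyltransferase of triglyceride synthesis, had 1647 normalized counts per kilobase, *Plin3* had 1202 and *Pnpla2*, the first lipase of triglyceride breakdown, had 634. *Plin2* was 4.4 times as high as *Plin3* per kilobase and 2.28 times without division by length. *Fitm1* had no reads. Of 10 other genes of fatty acid uptake, binding and lipoprotein handling, 9 had reads and 7 exceeded the median. *Fabp5*, with 8207 normalized counts per kilobase, was 5.88 times as high as *Fabp4*, and *Fabp3*, at 802, was below *Fabp4*. *Gpihbp1*, which holds LPL on the endothelial surface, had no reads.

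Other products of mature adipocytes were low. Of 10 such genes, none exceeded the median level per kilobase, 2 had a mean of at least 10 normalized counts, and the median percentile was 8.71. *Gpd1* had 18.7, *Adrb3* 16 and *Cfd*, which encodes adipsin, 9.79 normalized counts per kilobase, all above *Plin1* and *Adipoq*. *Lep*, *Retn* and *Pck1*, which encode leptin, resistin and phosphoenolpyruvate carboxykinase, had no reads in any of the 6 libraries, which allows means of up to 0.499. *Ucp1*, the marker of brown fat, was singled out after its value was seen and had 2 reads.

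Surface markers of preadipocytes differed widely in level. Of 7 genes, 5 had a mean of at least 10 normalized counts, a share close to the 73.9% of all genes with reads, and the highest were *Cd24a* (12636 normalized counts per kilobase), *Ly6a* (2049) and *Pdgfrb* (769). *Dpp4* (0.192 normalized counts per kilobase, 6 reads) and *Pi16* (1.51), named after their values were seen, were the 2 that did not reach this mean. Fibroblast markers were high, with 7 of 9 above the median and a median percentile of 92.4. *Vim* was the highest at 150796 normalized counts per kilobase, and *Lum*, at 0.544 and 8 reads, was nearly absent, so the label of MEFs was met by most but not all of its markers.

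*Fabp4*, *Lpl* and *Cd36* are also used by macrophages, endothelial cells and muscle, so the markers of these cells are given beside them. Of 8 macrophage markers, 2 had a mean of at least 10 normalized counts: *Cd68* with 209 and *Csf1r* with 10.4 normalized counts per kilobase. *Lyz2* followed at 1.28, *Ptprc* had 19 reads and *Adgre1* had 1. Of 8 endothelial markers 3 had a mean of at least 10 normalized counts, *Kdr* with 499, *Tek* with 8.25 and *Vwf* with 6.03 normalized counts per kilobase. *Emcn* had no reads, and the defining marker *Cdh5* had 21. Among 6 muscle markers *Acta1* (3258 normalized counts per kilobase) and *Tnnt2* (321) exceeded the median, *Ckm* was at 0.563 and *Myod1* had no reads. *Ptprc*, *Adgre1* and *Cdh5* were named after their values were seen, as defining markers. The share of other cell types in the levels of *Fabp4* and *Lpl* was not tested.

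**Figure D5:**
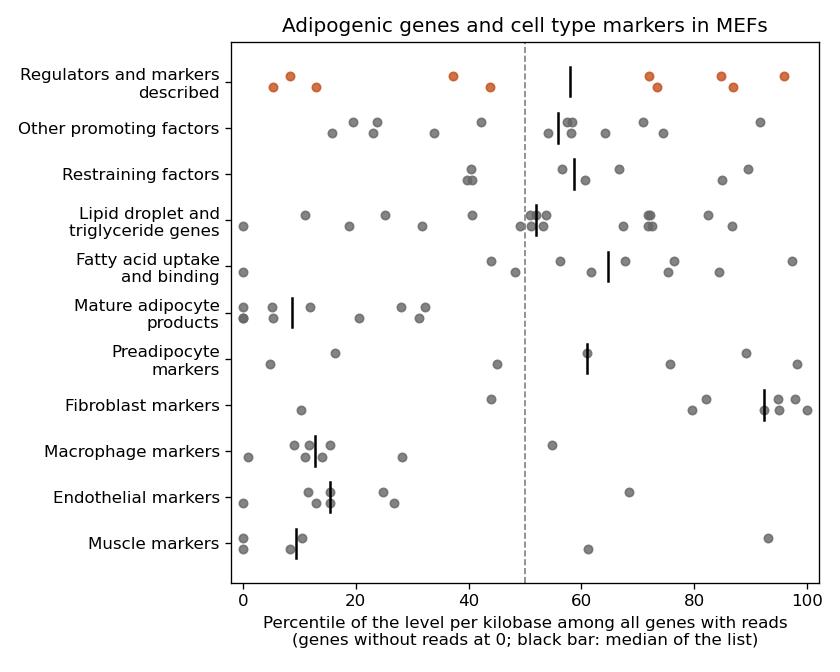
Percentile of the level per kilobase among all genes with reads, 1 point per gene, for the 10 genes described and for lists of related genes and cell type markers. Genes without reads are drawn at 0, black bars are list medians and the dashed line is percentile 50. The 10 genes spread from 5.36 to 95.8, while 10 mature adipocyte products lie entirely below 50.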

How the data were processed

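RNA-Seq libraries of 3 WT and 3 *Anp32e* null MEF samples were prepared with a stranded total RNA kit. Alignment by the authors used STAR and mm10, and featureCounts of Subread gave counts per RefSeq transcript. The authors then ran DESeq2. From the deposited table only the signal column was used, a mean of counts scaled by the authors' size factors and taken across all 6 libraries. The other columns hold the authors' log2 differences, their standard errors, test statistics and p-values, and were not used, so no test was made and no analysis per group was possible.

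Of 42361 transcripts, 42203 were matched to 25043 genes with RefSeq annotation of GRCm38.p6, and 158 were not. The highest mean among its transcripts was taken for each gene, and 19275 genes had reads. Levels were divided by the length of the GENCODE M21 transcript matched to the RefSeq accession, which 97.3% of genes with reads had. Where the representative had no match, another transcript of the gene gave the length. Means under 4 normalized counts were split into whole reads by the steps of single reads (tolerance 1e-08, 1 solution for every gene named), a procedure tested on simulated data. Percentiles are among genes with reads. The total counts per library are not in the table, so depth per library is unknown beyond the size factors. All 10 genes were named with their values. From each other list the 3 with the highest level per kilobase and those without reads were named, and of fibroblast markers the highest and the lowest. Of the genes this rule names, 1 is not reported here. The 10 genes and the lists were chosen with earlier results of these data known. Python 3.11.15, numpy 2.4.6, pandas 2.3.3, scipy 1.17.1 and matplotlib 3.10.9 were used.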

Additional observations from a re-analysis of the deposited data

How the results depend on the processing

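The median percentile of the 10 genes, 57.9, was 53.4 when the distinct means of a gene's transcripts were summed, 55.9 without division by length, 43.7 when only genes reaching a mean of 10 were the background, and 57.6 among autosomal genes. It was 58.6 with the RefSeq length of genes with 1 exon, an alternative chosen after seeing the data. The count of genes above the median level per kilobase was 5 under each of these alternatives, and the count reaching a mean of 10 was 7 with summed means. Summing raised *Pparg* from percentile 73.4 to 86, since its 4 transcripts have different means, and lowered the other 9. The order of the 10 genes by level kept *Plin2* first, and *Cebpa*, *Lpl* and *Plin1* sixth to eighth, per kilobase, without division by length and with summed means. With summed means *Pparg* passed *Cebpb* and *Fabp4* to second place. Without division by length *Cebpd* passed *Pparg* and *Fabp4*, *Pparg* passed *Fabp4*, and *Cd36* passed *Adipoq*. No replicate could be left out and no paired analysis was possible because the table holds 1 mean over all libraries. Pooling limits each level: a gene expressed in 1 group alone would appear here at about its average over both groups.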
